A study of Homo sapiens with 6 samples.

Results

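The genes described here are 10 human genes of apical membrane transport, recycling and the brush border, MAL, MAL2, PLLP, RAB25, RAB11FIP1, MYO5B, VIL1, PLS1, EZR and CRB3, out of 60240 genes in the count table. MAL2 was selected on its difference between LSD1 KO and WT cells, and the other members were chosen by their known roles with earlier results of these data in view. The difference between LSD1 KO and WT is therefore given for the members as a description and not as a test. Gene expression was measured by RNA-seq of polyA RNA in HCT116 cells, a human colorectal carcinoma cell line. The groups were untargeted cells (WT) and LSD1 knockout cells (LSD1 KO), each with 3 libraries. LSD1, the product of KDM1A, is a histone demethylase that removes methyl groups from H3K4. The knockout was made with CRISPR/Cas9 directed at exon 1, and single clones were expanded, but the labels do not say from how many clones or cultures the libraries came. The methods state in general that experiments had biological replicates, without naming the cultures behind these libraries, so p-values measure the spread between these libraries, part of which may be technical.

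Epithelial cells sort membrane proteins to an apical surface, which faces the lumen, and a basolateral surface. The MAL proteins are small proteins with several membrane-spanning segments that take part in the transport of raft-associated and transcytosed cargo to the apical surface, and MAL2 is known for transcytosis. RAB25 is an epithelial relative of RAB11 on recycling endosomes, RAB11FIP1 is one of the effectors that RAB11 and RAB25 bind, and MYO5B is the actin motor that moves these endosomes below the apical membrane. VIL1 and PLS1 bundle the actin filaments of intestinal microvilli and EZR links those filaments to the membrane, whereas CRB3 is the Crumbs protein of most epithelia and helps to define the apical domain.

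Total counts ranged from 25379279 to 29186963 per library, and a floor of 3 counts was worth 0.0994 to 0.114 CPM (counts relative to the TMM-scaled library size), a limit of counting alone. The targeted gene KDM1A averaged 223.1 ± 8.78 CPM in the WT libraries, against 28.4 ± 1.30 CPM in the LSD1 KO libraries (SD, n = 3 each). Libraries with the same replicate number deviated together, and a second edgeR model therefore held the replicate number as a block. Among cell type markers, the summed level of 7 epithelial markers was between 2044 and 3819 CPM in WT and between 2420.4 and 3160 CPM in LSD1 KO libraries, with CDX1 at 0 counts. Of these, EPCAM fell by 0.98 on the log2 scale with the block (q value 0.0788 from edgeR), from 204.0 ± 39.2 CPM to 104.3 ± 28.3 CPM (SD, n = 3 each), and had a q value of 0.668 without it. KRT8, KRT18 and KRT19 made up most of the sum. Of the 6 epithelial markers tested, 5 had a negative log2 fold change without the block (median -0.27 over the 6), while KRT19 had a positive one (0.42). CDX2, counted among the 5, hardly differed (-0.0054 without the block and 0.013 with it). KRT18 averaged 508.0 ± 141.6 CPM in WT and 358.9 ± 13.8 CPM in LSD1 KO (SD, n = 3 each). It was not called (edgeR q value 0.230 with the block). The 7 leukocyte and T cell markers summed to between 0.189 and 0.681 CPM in WT and between 0.442 and 0.572 CPM in LSD1 KO, with CD3D and CD3E at 0 counts. The 4 endothelial markers in the table summed to at most 2.27 CPM. The 6 fibroblast markers summed to between 20.5 and 24.2 CPM in WT and between 30.3 and 34.4 CPM in LSD1 KO, almost all of it COL1A1 (edgeR q value 0.0628 with the block and 0.999 without it), with LUM at 0. The part of these differences in the results below was not tested. In bulk RNA, fewer cells expressing a gene and less RNA per cell cannot be told apart.

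Of the 10 members, 8 had enough counts for the edgeR fit over 17672 genes. MAL and VIL1 did not. At a q value under 0.1, the threshold of the study, edgeR's quasi-likelihood test called none of the 8 members without the replicate block, where 0.00566% of all genes tested were called, and 2 members had an unadjusted p under 0.05, as did 3.12% of all genes. With the replicate block it called 1, MAL2, which was lower in LSD1 KO cells. In that fit 1.6% of all genes were called, 0.549% as lower and 1.05% as higher. DESeq2's Wald test also called 1 member, again MAL2, against 0.281% of the genes it tested. Those were 33832 genes, among them low-count genes that the edgeR fit left out, so this share is not on the same base. The CPM values of the groups did not overlap for MAL2 and CRB3, 2 of the 8 members, as for 7.74% of all genes tested. Nothing is read from these counts, because the contrast took part in the choice of the members. The median log2 fold change was 0.18 over the 8 members and 0.00082 over all genes tested.

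**Figure D1:**
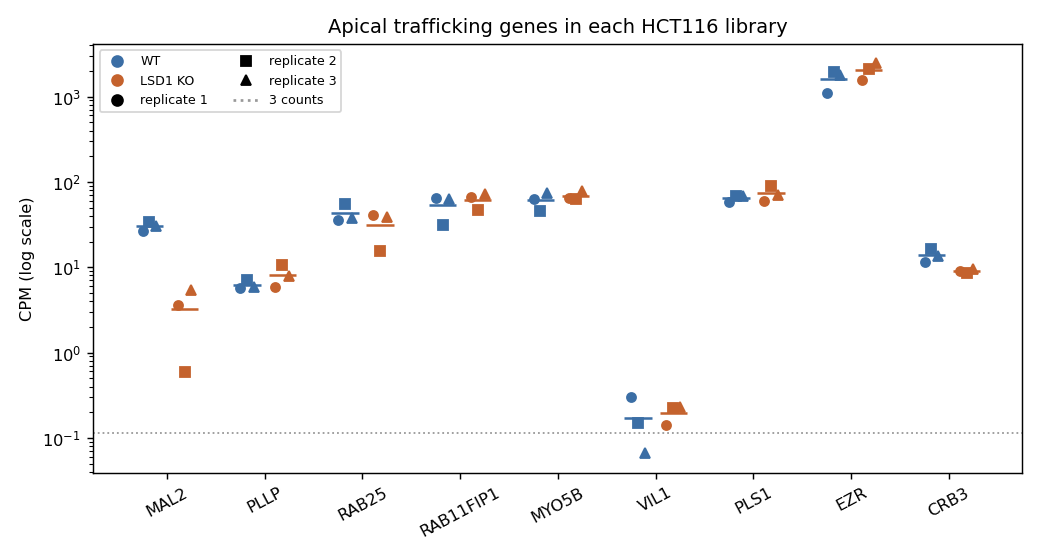
Level of each member in each library, in CPM on a log axis, with WT in blue and LSD1 KO in orange, a marker shape for each replicate number and a bar at the mean of 3 libraries. MAL2 is between 26.3 and 33.5 CPM in WT and between 0.589 and 5.38 CPM in LSD1 KO, VIL1 lies near the dotted line at 3 counts (the highest floor, 0.114 CPM), and MAL is not drawn because it had 0 counts.

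MAL2 (ENSG00000147676) lies on chromosome 8 from 119208363 to 119245673 (RefSeq, GRCh38.p14). It had 26.3, 33.5 and 30.4 CPM in WT replicates 1, 2 and 3 and 3.65, 0.589 and 5.38 CPM in LSD1 KO replicates 1, 2 and 3. Every LSD1 KO library was below every WT library, and LSD1 KO replicate 2 stood lowest. The counts behind these values were 696, 884 and 917 in WT and 102, 16 and 142 in LSD1 KO, so the lowest library still lay above the floor of 3 counts. The WT mean, 30.0 ± 3.60 CPM (SD, n = 3), was 9.38 times the LSD1 KO mean, 3.20 ± 2.42 CPM (SD, n = 3). The log2 fold change was -3.23 (standard error 0.60) without the replicate block and -3.38 (standard error 0.47) with it. Within the libraries numbered 1, 2 and 3 the log2 difference was -2.84, -5.74 and -2.49, which places the widest gap in the libraries numbered 2. Without LSD1 KO replicate 2, MAL2 was called by edgeR without the block, and its log2 fold change was -2.75. Without LSD1 KO replicate 3 it was -3.83 (edgeR q value 0.953). In this fit without the block, MAL2 was not called with all 6 libraries (q value 0.443). Nor was it called without any other single library (q values of at least 0.652). In the blocked fit it was called without the libraries numbered 2 (-2.68) and without those numbered 3 (-4.02). Of the 31-base sequences of MAL2 transcripts, 4.35% also occur in the antisense RNA MAL2-AS1 and none in another gene at 1% or more.

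The other MAL proteins were absent, similar in both groups or lower in LSD1 KO cells. MAL (ENSG00000172005), the founding member and a protein of T cells, myelin and apical rafts, lies on chromosome 2 from 95025708 to 95053992 and had 0 counts in all 6 libraries, which allows a level of up to 0.0994 to 0.114 CPM. PLLP (plasmolipin, ENSG00000102934), a related protein of myelin and of epithelial membranes, lies on chromosome 16 from 57256097 to 57284672. It had 5.67, 7.04 and 5.83 CPM in WT and 5.86, 10.7 and 7.95 CPM in LSD1 KO replicates 1, 2 and 3. The groups overlapped through LSD1 KO replicate 1, and the log2 fold change was 0.40 (standard error 0.28). PLLP shares 18.7% of its 31-base sequences with ARL2BP on the opposite strand, and the sources used here do not state whether strand was kept, so reads of the pair may not be separated. MALL (MAL-like, or BENE), a member of the same family that was not among the 10 genes, had 177.4, 179.8 and 158.7 CPM in WT and 99.95, 104.4 and 60.8 CPM in LSD1 KO. It fell by 1.00 on the log2 scale with the replicate block (standard error 0.13, q value 0.0181 from edgeR). Without the block the difference was -0.96 on the log2 scale and was not called (q value 0.612).

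To compare levels between genes, counts were divided by the length of the canonical transcript and scaled to a common total in each library (TPM). Per length, MALL was the most abundant MAL family transcript in every library. In WT cells MALL was at 158.4 ± 16.6 TPM, MAL2 at 22.6 ± 1.51 TPM and PLLP at 8.75 ± 0.0419 TPM (SD, n = 3). In LSD1 KO cells they were at 77.2 ± 18.4, 2.41 ± 1.88 and 11.0 ± 2.50 TPM (SD, n = 3). The family total was 189.7 ± 16.1 TPM in WT and 90.6 ± 16.4 TPM in LSD1 KO. The share of MAL2 in the family total was between 10.4% and 12.9% in WT and between 0.398% and 5.69% in LSD1 KO, and that of PLLP was between 4.22% and 5.00% in WT and between 8.10% and 15.9% in LSD1 KO. MAL2 was above PLLP in each WT library and below it in each LSD1 KO library, while the share of MALL overlapped between the groups, from 82.4% to 85.4% and from 78.4% to 89.2%.

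**Figure D2:**
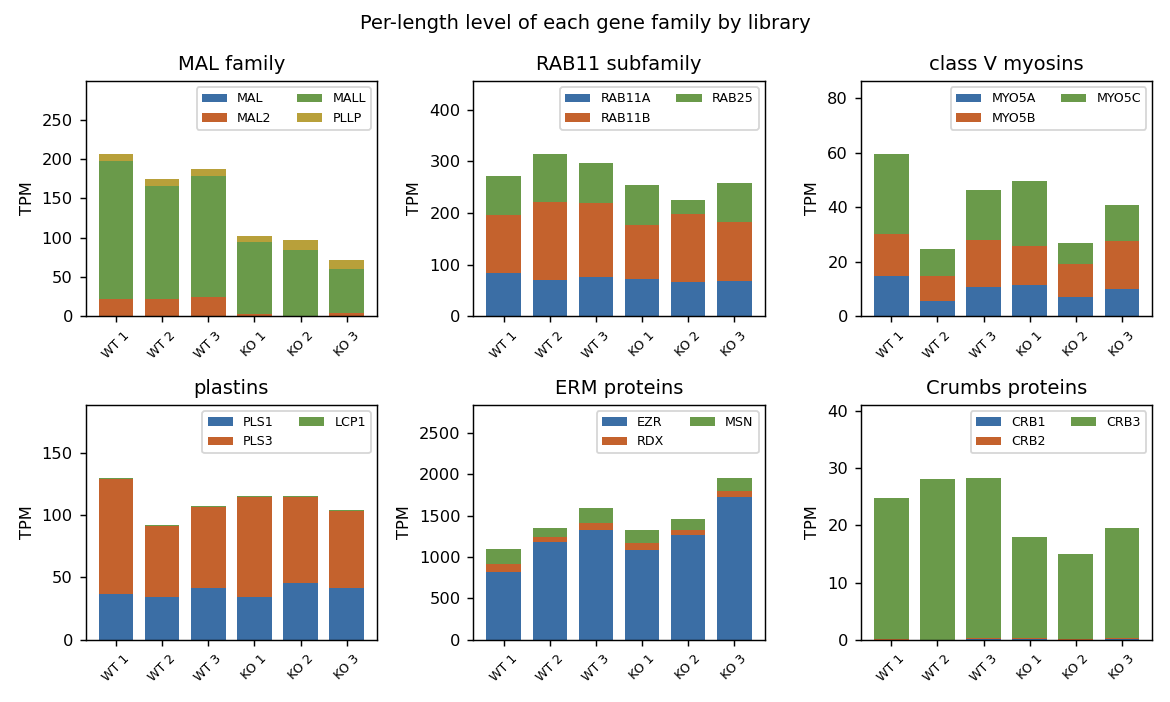
Stacked bars of the per-length level (TPM, from 0) of the members and their paralogs in each library, 3 WT and 3 LSD1 KO (KO), for 6 gene families. The MAL family total is between 174.7 and 206.7 TPM in WT and between 72.0 and 102.5 TPM in LSD1 KO, RAB25 is smallest in LSD1 KO replicate 2, and EZR and CRB3 make up most of their families in every library.

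The genes of the recycling endosome differed less between the groups. RAB25 (ENSG00000132698), on chromosome 1 from 156061160 to 156070504, had 36.1, 55.3 and 38.1 CPM in WT replicates 1, 2 and 3 and 40.5, 15.3 and 38.7 CPM in LSD1 KO replicates 1, 2 and 3. LSD1 KO replicate 2 was the lowest of the 6 libraries, and the other LSD1 KO libraries lay within the WT range. The log2 fold change of RAB25 was -0.45 (standard error 0.35) and -0.52 (standard error 0.34) with the replicate block. Within the libraries numbered 1, 2 and 3 it was 0.17, -1.85 and 0.022. Without LSD1 KO replicate 2 the log2 fold change was -0.14, and without WT replicate 2, the highest library, it was -0.25. In the blocked fit without both libraries numbered 2 it was 0.077, so the lower mean rested mostly on the libraries numbered 2.

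Per length, RAB25 was one of the abundant RAB11 GTPases in HCT116 cells. In WT libraries it averaged 82.4 ± 9.53 TPM (SD, n = 3), in a range that overlapped with that of RAB11A (77.0 ± 6.77 TPM), while RAB11B was above both in each library (135.2 ± 20.2 TPM). RAB11A and RAB11B are expressed in most tissues, whereas RAB25 is largely epithelial. In LSD1 KO cells RAB25 was at 59.9 ± 29.6 TPM, RAB11A at 68.6 ± 3.05 TPM and RAB11B at 117.6 ± 14.1 TPM (SD, n = 3). RAB25 held between 26.4% and 29.7% of the summed level of the 3 genes in WT and between 11.5% and 30.7% in LSD1 KO.

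RAB11FIP1 (ENSG00000156675), on chromosome 8 from 37858618 to 37899497, had 64.4, 31.1 and 63.3 CPM in WT and 66.5, 46.5 and 72.0 CPM in LSD1 KO replicates 1, 2 and 3. In both groups replicate 2 was the lowest, and the groups overlapped. The log2 fold change was 0.22 (standard error 0.29). An unnamed transcript on the opposite strand, ENSG00000280064, contains 24.3% of the 31-base sequences of RAB11FIP1. MYO5B (ENSG00000167306), on chromosome 18 from 49822789 to 50195147, had 63.8, 46.2 and 73.2 CPM in WT and 64.1, 63.7 and 78.4 CPM in LSD1 KO. Again the groups overlapped, with a log2 fold change of 0.17 (standard error 0.20). Among the class V myosins MYO5B was at 13.9 ± 4.36 TPM in WT and 14.7 ± 2.67 TPM in LSD1 KO (SD, n = 3), next to MYO5A at 10.3 ± 4.54 and 9.43 ± 2.28 TPM and MYO5C at 19.3 ± 9.65 and 14.8 ± 8.32 TPM. In each WT library MYO5C was the highest and MYO5A the lowest of the 3, and in LSD1 KO replicates 2 and 3 MYO5B was above MYO5C. A gene on the same strand, ENSG00000266997, shares 4.09% of the 31-base sequences of MYO5B.

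The 3 brush border genes spanned the widest range of levels. EZR (ezrin, ENSG00000092820), on chromosome 6 from 158765748 to 158819368, was the most abundant member, with 1089 CPM in WT replicate 1, 1942 CPM in WT replicate 2 and 1797 CPM in WT replicate 3. It had 1561, 2077 and 2443 CPM in LSD1 KO replicates 1, 2 and 3. The groups overlapped, although the LSD1 KO library was the higher in each same-numbered pair, by 0.52, 0.097 and 0.44 on the log2 scale. The log2 fold change of EZR was 0.33 (standard error 0.27) and 0.35 (standard error 0.10) with the replicate block. EdgeR called EZR in neither fit (q value 0.999 without the block and 0.193 with it). Ezrin made up between 75.2% and 87.9% of the summed per-length level of the ERM genes in WT and between 81.9% and 88.1% in LSD1 KO, with MSN (moesin) above RDX (radixin) in each library.

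PLS1 (plastin 1, or fimbrin, ENSG00000120756), on chromosome 3 from 142596393 to 142713664, had 58.6, 68.5 and 68.2 CPM in WT and 60.2, 90.2 and 71.1 CPM in LSD1 KO replicates 1, 2 and 3. The groups overlapped, and the log2 fold change was 0.18 (standard error 0.19). An antisense transcript, ENSG00000287045, contains 6.45% of its 31-base sequences. Per length PLS1 was at 37.5 ± 3.74 TPM in WT and 40.4 ± 5.45 TPM in LSD1 KO, below PLS3, the plastin of most non-haematopoietic tissues, at 71.5 ± 18.7 and 70.6 ± 9.05 TPM (SD, n = 3). LCP1, the leukocyte plastin, was under 1 TPM on average in both groups. VIL1 (villin, ENSG00000127831), on chromosome 2 from 218419123 to 218453295, was counted 8, 4 and 2 times in WT and 4, 6 and 6 times in LSD1 KO, close to the floor, and its level cannot be compared at this depth. In addition, 43.6% of its 31-base sequences lie in USP37 on the opposite strand, so the few reads may not be its own. HCT116 cells gave a high level of ezrin, a moderate level of intestinal plastin and almost no villin, a defining marker of intestinal brush border cells.

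CRB3 (ENSG00000130545), on chromosome 19 from 6463777 to 6467221, had a lower mean in LSD1 KO cells. It had 11.6, 16.5 and 13.5 CPM in WT replicates 1, 2 and 3 and 9.08, 8.66 and 9.65 CPM in LSD1 KO replicates 1, 2 and 3. The groups did not overlap, and the LSD1 KO libraries lay closer together than the WT libraries. The mean was 13.8 ± 2.46 CPM in WT and 9.13 ± 0.50 CPM in LSD1 KO (SD, n = 3), so that LSD1 KO cells kept 66.0% of the WT level. The log2 fold change was -0.60 (standard error 0.21) and -0.59 (standard error 0.16) with the replicate block, and edgeR called it in neither fit. Within the libraries numbered 1, 2 and 3 the log2 difference was -0.35, -0.92 and -0.48. CRB3 held at least 97.9% of the summed per-length level of the Crumbs genes in each library, with CRB1 and CRB2 at no more than 18 counts in any library.

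RAB25 and CRB3 had a lower mean in LSD1 KO cells, but neither was called, and that of RAB25 rested mostly on the libraries numbered 2. To show the sequence at their start and set it beside other members, 300-base windows were searched on both strands for 3 motifs. Each window ran from 250 bases before to 50 bases after a RefSeq start site (GRCh38.p14). Windows of MAL2, RAB11FIP1 and VIL1 were not used here. A gene can have more than 1 start site, so that PLS1 had 3 windows and those of CRB3 and EZR lay inside the outer bounds of the gene. CACCTG is the E-box that repressors such as SNAI1 and ZEB1 are known to bind, AACCGGTT is the consensus of grainyhead-like factors and CCGTTA is the core of the OVOL motif. The windows of RAB25 and CRB3 are printed 5′ to 3′ with matches on either strand in capitals. RAB25 is on the plus strand at chr1:156060910-156061209 and CRB3 is on the plus strand at chr19:6464021-6464320.
RAB25: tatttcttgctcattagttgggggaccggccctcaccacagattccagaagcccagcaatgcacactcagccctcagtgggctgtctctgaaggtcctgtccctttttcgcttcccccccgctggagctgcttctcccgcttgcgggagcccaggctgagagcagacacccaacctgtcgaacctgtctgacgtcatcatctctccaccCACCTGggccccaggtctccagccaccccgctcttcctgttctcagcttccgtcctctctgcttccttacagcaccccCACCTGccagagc
CRB3: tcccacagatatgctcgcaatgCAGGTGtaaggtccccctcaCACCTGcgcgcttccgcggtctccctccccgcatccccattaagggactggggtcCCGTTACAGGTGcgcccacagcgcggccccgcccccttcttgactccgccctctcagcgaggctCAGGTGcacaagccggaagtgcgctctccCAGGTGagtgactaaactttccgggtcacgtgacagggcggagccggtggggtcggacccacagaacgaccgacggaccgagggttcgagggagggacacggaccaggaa
The CRB3 window held 5 matches to CACCTG, at positions -228, -208, -147, -89 and -60 from the start site, and 1 to CCGTTA, which ends next to the third of them. The RAB25 window held 2 matches to CACCTG, at positions -41 and 37. At least 1 match to CACCTG occurred in 20.6% of the 35116 windows of this kind in RefSeq, at least 2 in 3.49% and at least 5 in 0.094%, while CCGTTA occurred in 3.07%. MYO5B and PLLP, whose means were not lower in LSD1 KO cells, had 3 and 1 matches to CACCTG, and the windows of MAL, PLS1 and EZR had none. None of these windows held AACCGGTT, which 0.134% of all windows held. A match is a description of the letters and not of a bound site, and its relation to the differences between the groups was not tested.

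**Figure D3:**
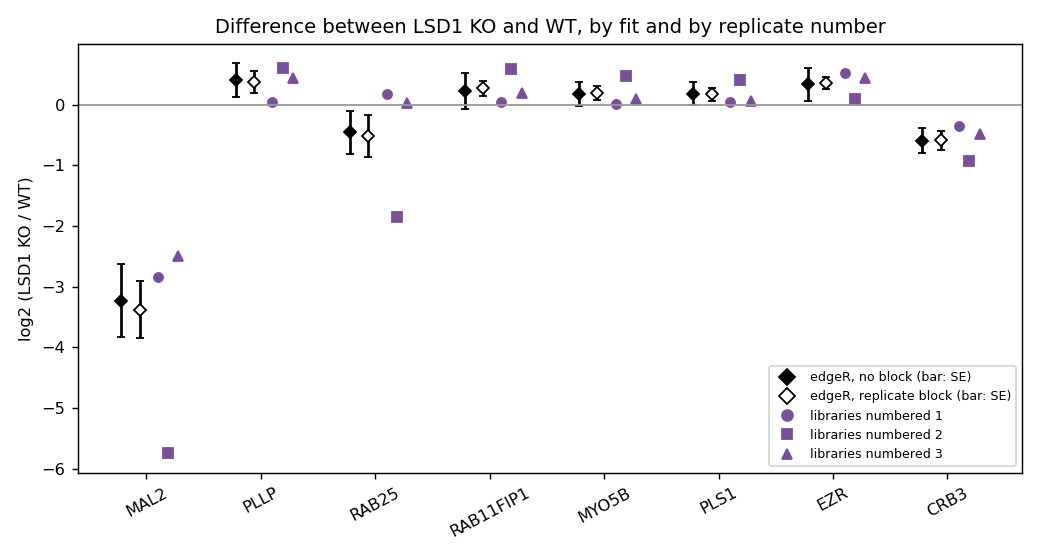
Difference between LSD1 KO and WT on the log2 scale for the 8 members with enough counts, as the edgeR estimate without (filled) and with (open) the replicate block, with bars of 1 standard error, and as the difference within the libraries of each replicate number (purple). MAL2 is below 0 at each number, from -5.74 to -2.49, CRB3 is below 0 at each number by less, and RAB25 is below 0 in the libraries numbered 2 only.

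To find genes with a profile like that of MAL2, the log2 CPM of 14800 tested genes with a mean of at least 1 CPM was centred on each gene's mean, and the root mean square difference from MAL2 over the 6 libraries was taken. The 5 nearest genes were SULT1C2, a cytosolic sulfotransferase (0.63 on the log2 scale), LPAR5, a receptor for lysophosphatidic acid (0.66), HNF4A, a transcription factor of intestine and liver (0.67), LINC02458 (0.71) and MSRB3-AS1 (0.85). Per length they averaged between 0.886 and 6.75 TPM in WT, all below MAL2. In LSD1 KO they averaged between 0.404 and 0.956 CPM, so they passed the limit of 1 CPM through the WT libraries. SULT1C2, LPAR5 and HNF4A were below the floor of 3 counts in LSD1 KO replicate 2, where the log2 value depends on the prior count added before the logarithm. HNF4A, for instance, was counted 49, 49 and 62 times in WT and 16, 2 and 20 times in LSD1 KO replicates 1, 2 and 3. LPAR5 was counted 93, 48 and 71 times in WT and 19, 0 and 16 times in LSD1 KO. Each of the 5 was lowest in LSD1 KO replicate 2, as MAL2 was, but they were chosen for likeness to MAL2 over these same libraries. MSRB3-AS1 is an antisense gene, and its reads may not be separated from those of MSRB3.

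To set the members beside the rest of the pathway, 6 lists with 132 other genes of apical transport, microvilli and polarity were used. In edgeR without the replicate block, 115 of them were tested, 0 were called and 5 had an unadjusted p under 0.05, a threshold that 3.12% of all genes passed. With the block 3 were called, 2 lower and 1 higher, against 1.6% of all genes. DESeq2's Wald test called 1, MALL. The median log2 fold change of the 115 genes was 0.031 without the block.

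In the list of proteins with a MARVEL domain, the 4-pass membrane fold that MAL proteins share with occludin, 1 of 15 genes tested was called with the block, MALL, given above. For MARVELD3, a tight junction protein, the log2 fold change was -0.73 with the block (standard error 0.19, q value 0.155), and its values did not overlap between the groups, with 16.3, 18.1 and 14.6 CPM in WT and 12.4, 7.33 and 10.2 CPM in LSD1 KO. The median of the list was -0.074 on the log2 scale.

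In the list of recycling endosome and apical exocytosis genes, 1 of 38 genes tested was called with the block, and the median log2 fold change was 0.0086. RAB3B, a GTPase of regulated secretion, had 138.4, 81.9 and 145.2 CPM in WT and 391.3, 117.7 and 446.2 CPM in LSD1 KO replicates 1, 2 and 3. It rose by a log2 fold change of 1.22 with the block (standard error 0.19, q value 0.0344 from edgeR). However, the groups overlapped through LSD1 KO replicate 2, and RAB3B was not called without the block (log2 fold change 1.39). AP1M2, the epithelial subunit of the AP-1B adaptor that sorts cargo to the basolateral surface, had 22.8, 36.5 and 28.1 CPM in WT and 18.3, 4.86 and 14.9 CPM in LSD1 KO. Its log2 fold change was -1.30 (standard error 0.41, q value 0.218) with the block, and LSD1 KO replicate 2 was the lowest library, as for RAB25 and MAL2. The 9 listed subunits of the exocyst, the complex that tethers these vesicles, had log2 fold changes between -0.11 and 0.23.

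In the list of brush border and microvillus core genes, 1 of 19 genes tested was called with the block and the median was 0.062. MYO1D, a membrane-bound class I myosin of the brush border, had 59.2, 39.2 and 61.9 CPM in WT and 25.5, 30.0 and 33.6 CPM in LSD1 KO, and it fell by 0.83 on the log2 scale with the block (standard error 0.15, q value 0.0539 from edgeR) but was not called without it (log2 fold change -0.85, q value 0.733). For VILL, a villin relative, the log2 fold change with the block was 0.49 (standard error 0.39). MYO1A, the myosin best known from the intestinal brush border, had at most 17 counts in a library, and TMIGD1 had 0.

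No gene was called in the other 3 lists. Among 12 tested ERM proteins and apical scaffolds the median log2 fold change was -0.079, and of genes with a mean of at least 1 CPM the kinase STK24 (-0.24) and NF2, or merlin (0.23), had the largest differences without the block. Of the 18 tested genes of the Crumbs, PAR and Scribble complexes, which include the partners of CRB3, the median was 0.13, with PARD6A at 0.32 (standard error 0.39) and DLG1 at 0.32 (standard error 0.18). PALS1 and PATJ, scaffolds of the Crumbs complex, had log2 fold changes of 0.26 and -0.12. Of 23 apical cargo genes, 13 were tested, with a median of 0.12. ABCB1, a drug efflux pump, was at 0.65 (standard error 0.39) and SLC9A3, a sodium-proton exchanger, at -0.39 (standard error 0.35). PIGR, the receptor whose transcytosis MAL2 is known for, was counted 14, 17 and 13 times in WT and 12, 6 and 7 times in LSD1 KO. The brush border enzymes ALPI and SI had 0 counts in all 6 libraries, and LCT had between 1 and 11 counts.

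**Figure D4:**
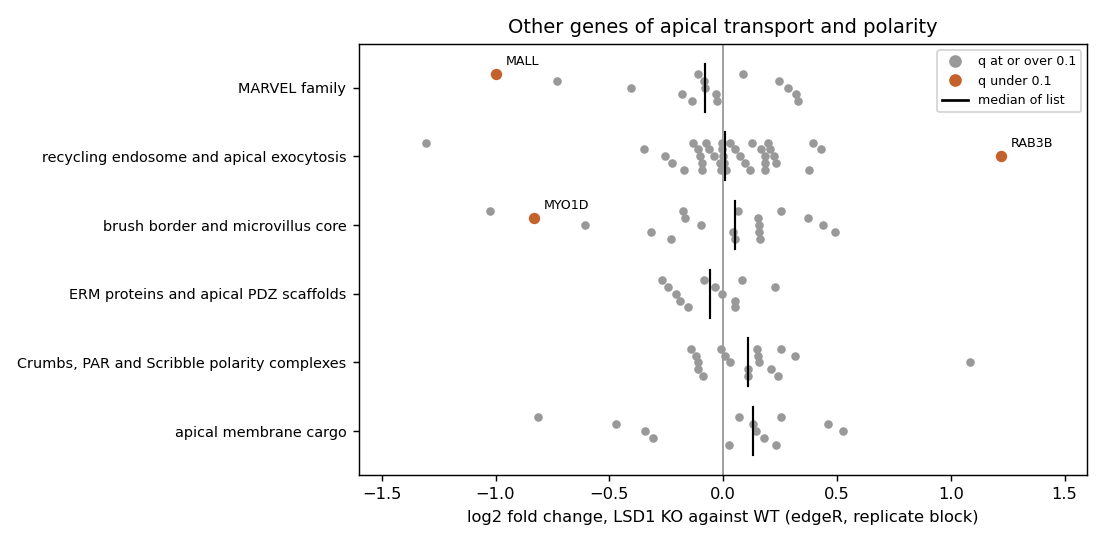
Log2 fold change between LSD1 KO and WT from edgeR with the replicate block for each tested gene of 6 lists, with a bar at the median of each list and the genes with a q value under 0.1 in orange. MALL and MYO1D lie below 0 and RAB3B above it, and the medians of the lists lie near 0.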

How the data were processed

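The authors checked reads with FastQC, trimmed them with Trimmomatic 0.39, quantified read pairs with Salmon 1.4.0 against GENCODE transcripts of GRCh38 and deposited the results as estimated counts per gene. The values are whole and carry no scaling between libraries. The step from transcripts to genes is not given in the sources used here.

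Members and gene lists were chosen with earlier results of these data known. Symbols were matched for 58395 of 60240 genes. LSD1 KO was compared with WT with edgeR 4.0.16 in R 4.3.3 (TMM, filterByExpr, quasi-likelihood test, Benjamini-Hochberg over 17672 genes). Standard errors came from the fold change and the F statistic. Same-numbered WT and LSD1 KO libraries correlated in their deviations from the group means, with Pearson's r of 0.531, 0.530 and 0.386 across genes, which are not independent replicates, and the number was held as a block in a second fit. The pairing comes from the data, because no source says what the number marks. DESeq2 1.42.0, other size factors and filters, and leaving out libraries or pairs were alternatives. TPM used canonical transcript lengths of GENCODE v44lift37, and shared 31-base sequences were counted in its transcripts on both strands. Positions and promoters came from RefSeq on GRCh38.p14, in which 7 members had a promoter that was used here.

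From the pathway lists, genes were named if called with or without the block, or if among the 2 largest log2 fold changes of the list at a mean of at least 1 CPM. Marker genes, exocyst subunits, MYO1A, TMIGD1, PALS1, PATJ, PIGR, ALPI, SI and LCT were chosen by name once their values were known. The fits were tested on simulated counts in which same-numbered libraries were given a shared deviation. That setting cannot show whether the block is right for these libraries.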

Additional observations from a re-analysis of the deposited data

How the results depend on the processing

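The log2 fold change of MAL2 was negative in all 16 alternatives and lay between -4.02, with the replicate block and without both libraries numbered 3, and -2.68, with the block and without those numbered 2. MAL2 was called in 8 of the 16. Because MAL2 was selected on this contrast and its groups did not overlap, the kept sign and these calls are a description and not support. PLLP, EZR and CRB3 also kept their sign in all 16, while RAB25, RAB11FIP1, MYO5B and PLS1 changed it in 1 each, all of them fits that left out a library or pair numbered 2. EZR was called in 2 alternatives, DESeq2 with the replicate block and the edgeR block without the libraries numbered 2.

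The number of members called was 0 without the block, 1 when no filter on low counts was used, 1 with DESeq2's Wald test, 1 with the replicate block in edgeR, 2 with the block in DESeq2, 0 to 1 when single libraries were left out (1 without LSD1 KO replicate 2) and 1, 2 and 1 without pair 1, 2 and 3 under the block. The pathway genes called numbered 0, 4, 1, 3, 4, 0 to 1 and 6, 10 and 4 in the same settings. Over all genes the numbers were 1, 114, 95, 282, 597, 1 to 26 (26 without LSD1 KO replicate 2) and 428, 1055 and 198. The genes tested in these settings numbered 17672, 33857, 33832, 17672, 33857, 18143 to 18308 and 17835, 18043 and 17686. Of the 5 profiles nearest to MAL2, 4 remained with a prior count of 0.5 and 4 when only the 3 within-pair differences were used. The cause of these differences was not tested. VIL1 and MAL could not be compared at this depth.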

Other observations

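Libraries numbered 2 deviated from the others in the same direction in both groups for PLLP, RAB11FIP1, MYO5B, PLS1 and EZR, and in opposite directions for MAL2, RAB25 and CRB3. On the log2 scale, replicate 2 differed from the mean of replicates 1 and 3 by 0.58 in WT and -1.37 in LSD1 KO for RAB25, and by 0.24 in WT and -2.83 in LSD1 KO for MAL2. RAB11FIP1 was lower in replicate 2 of both groups, by 1.04 in WT and 0.57 in LSD1 KO. PLLP was higher in replicate 2 of both groups, by 0.29 and 0.64, and PLS1 by 0.12 and 0.46. What the replicate number stands for was not given in the sources used here, and the difference between the groups in these deviations was not tested.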
